A study of Mus musculus with 5 samples.

Results

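Genes of the splicing machinery and of its RNA-binding regulators were followed in mouse CD8 T cells stimulated in culture with or without interleukin-21. The members are the genes whose symbol starts with Srsf, Sf3a, Sf3b, Snrp, Hnrnp, Rbm, U2af or Prpf, together with Celf1, which was added by name with its earlier result at 72 h known. There were 69 such genes among the 8251 genes named on the array, and 67 of them passed the filter on low signal, as did 5610 genes in all. Rbm22 and Prpf39 were too dim to be tested, with normalised signals between 1.89 and 9.55 on the 5 arrays. Each gene is represented by its brightest probe set, a group of array probes for the same transcript. Of the members, 48 had 1 probe set and 21 had several.

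The cells were lymph node CD44lo CD8+ T cells of C57BL/6 mice, OT-1 TCR transgenic and aged 6 to 8 weeks, whose T cells carry a single receptor for an ovalbumin peptide. They were activated on latex microspheres coated with that peptide in its H-2Kb complex and with B7-1, a costimulatory ligand. Human rIL-2 was present in every culture. The Ag-B7 group was harvested at 48 h without IL-21 (2 arrays), and the Ag-B7+IL21 group, which also received murine IL-21, at 48 h (2 arrays) and at 72 h (1 array). No 72 h culture lacking IL-21 is part of these comparisons, and the later values describe cells kept with IL-21 only, and the cells saw artificial beads and 1 clonal receptor, with no antigen-presenting cells named. The titles call the samples biological replicates, but no label says whether they came from separate mice or cultures, and the p-values cover only the spread among these arrays. At 72 h the single array has no replicate of its own, and its test assumes that it varies like the groups at 48 h.

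Pre-mRNA splicing is carried out by the spliceosome, which is assembled on each intron from small nuclear ribonucleoproteins (snRNPs), particles of RNA and protein. The U1 snRNP marks the 5′ splice site, U2AF and the U2 snRNP with its SF3a and SF3b subcomplexes mark the 3′ splice site and branch point, and the U4/U6.U5 particles with PRPF proteins complete the machine. SR proteins (Srsf genes) bind exons and mostly promote their inclusion, whereas hnRNP proteins often oppose it and also act in RNA export and stability. T cells change the exons of many transcripts when they are activated, the best known being the tyrosine phosphatase CD45, whose variable exons are skipped under the control of Hnrnpll.

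Before scaling, the arrays differed in overall brightness. Their trimmed mean signals lay between 65.3 and 75.4 at 48 h without IL-21, at 105 and 106 with it, and at 65.9 at 72 h, so quantile-normalised signals were compared, in which any shift common to all probe sets is removed. The number of arrays limited the precision. The ratio of 3′ to 5′ probe sets, a measure of RNA integrity, lay between 0.942 and 1.03 at 48 h and at 0.886 at 72 h for beta-actin, between 0.796 and 0.877 against 0.849 for Gapdh, and between 2.40 and 3.99 against 2.43 for the transferrin receptor. The CD8 T cell label fitted its markers. Cd8a had signals between 401 and 753 and Cd3e between 1092 and 1650. Summed signals of the 7 CD8 T cell markers on the array were 5006 to 5534 at 48 h and 7969 at 72 h, with no test of the sum. Its members differed, since Cd3g, Cd3d and Thy1, which all T cells have, were called higher at 72 h. Cd8a stood at 690 and 753 with IL-21 at 48 h and at 506 at 72 h, which did not pass. The other CD8 chain, Cd8b1, stood at 989 and 1017 with IL-21 at 48 h and at 1093 at 72 h, and did not pass. Cd3e and Cd2 did not pass either. The CD4 T cell list held 1 measured gene, Cd4, at 9.38 to 15.9 and then 32.6. The sum of 5 B cell markers was 87.7 to 111 and then 110, that of 8 myeloid and dendritic cell markers 169 to 230 and then 234, and that of 2 erythroid markers 15.4 to 30.8 and then 22.4, with 4, 4 and 1 of them past the filter. Among the myeloid and dendritic markers the MHC class II gene H2-Ab1 was called higher at 72 h, with 140 against 58.1 to 72.1 at 48 h. Another class II gene, H2-Eb1, and Cd14 and Csf1r had negative differences from 48 h with IL-21 (-0.78, -0.61 and -0.80), none called. Under the filter, the class II gene H2-Aa read 3.69 to 6.01 at 48 h and 3.39 at 72 h. Itgam and Adgre1, also under it, read higher at 72 h than on any 48 h array. Lyz2 lay between 1.81 and 2.99 on all 5 arrays, under the filter. The only NK cell marker on the array, Ncr1, lay between 1.97 and 5.14 at 48 h and at 10.2 at 72 h, under the filter.

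The first question was how the splicing genes differed between 48 and 72 h in cells kept with IL-21. The set was lower on the 72 h array. Of the 67 genes tested, 20 fell (29.9%), 0 rose and 47 did not pass at an adjusted p under 0.05 in limma. Of all 5610 genes tested, 7.59% were called lower and 4.28% higher. By sign alone 56 of 67 members were below 0, with a median log2 difference of -0.55 against -0.01 for all genes. On the array at 72 h, 49 members (73.1%) lay below each of the 4 arrays at 48 h, 9 lay above all of them and 9 within their range, while 34.7% of all genes lay below and 30.9% above. The genes that fell, other than Celf1, did so by 1.66-fold to 3.35-fold, and all 20 had adjusted p between 0.00928 and 0.0392. Each of the 7 families held at least 1 of them. Without Celf1, the member added by name, 19 of 66 fell. In a bulk RNA sample, fewer cells that contain a transcript and less of it per cell cannot be told apart. Among the markers, Cd3g, Cd3d, Thy1 and H2-Ab1 were called higher at 72 h. Cd4 and Cd8b1, not called, and Ncr1, under the filter, also read higher. Cd8a, H2-Eb1, Cd14 and Csf1r had negative differences, none called. These markers and the beta-actin ratio moved with this comparison, and their part in it was not tested.

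All 20 members that fell kept a negative difference in the 12 alternative settings, which is no separate support. They were picked as lower, and the same 72 h array was in every fit. How many members were called depended on the spread estimate and the scaling. The count was 11 without the first and 10 without the second IL-21-free array, 0 without either 48 h array with IL-21, 0 without a trend in the variance and 5 after scaling on spiked hybridisation controls (Celf1, Hnrnpab, Prpf19, Prpf31 and Sf3b3), in which the median of members was -0.21 and that of all genes 0.33. With the mean over the probe sets of each gene 18 were called, and Celf1, Prpf19 and Srsf1 were not. Without the filter on low signal, 18 of 69 were called lower and 1 higher, and Rbmxl1 and Sf3a3 were no longer called. In the deposited, unscaled signals the count was 47, with medians of -1.12 and -0.58. The comparison medians of 0.33 and -0.58 were taken over all 7453 probe sets, not over 1 per gene. The median of each of the 7 families was below 0 under all 4 scalings, with the exception of U2af, at 0.09 with the control scaling. The split of calls over all probe sets also moved with the scaling, from 301 higher and 531 lower to 122 and 552 with arrays centred on their medians, 101 and 2027 unscaled, and 667 and 238 with the control scaling.

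**Figure D1:**
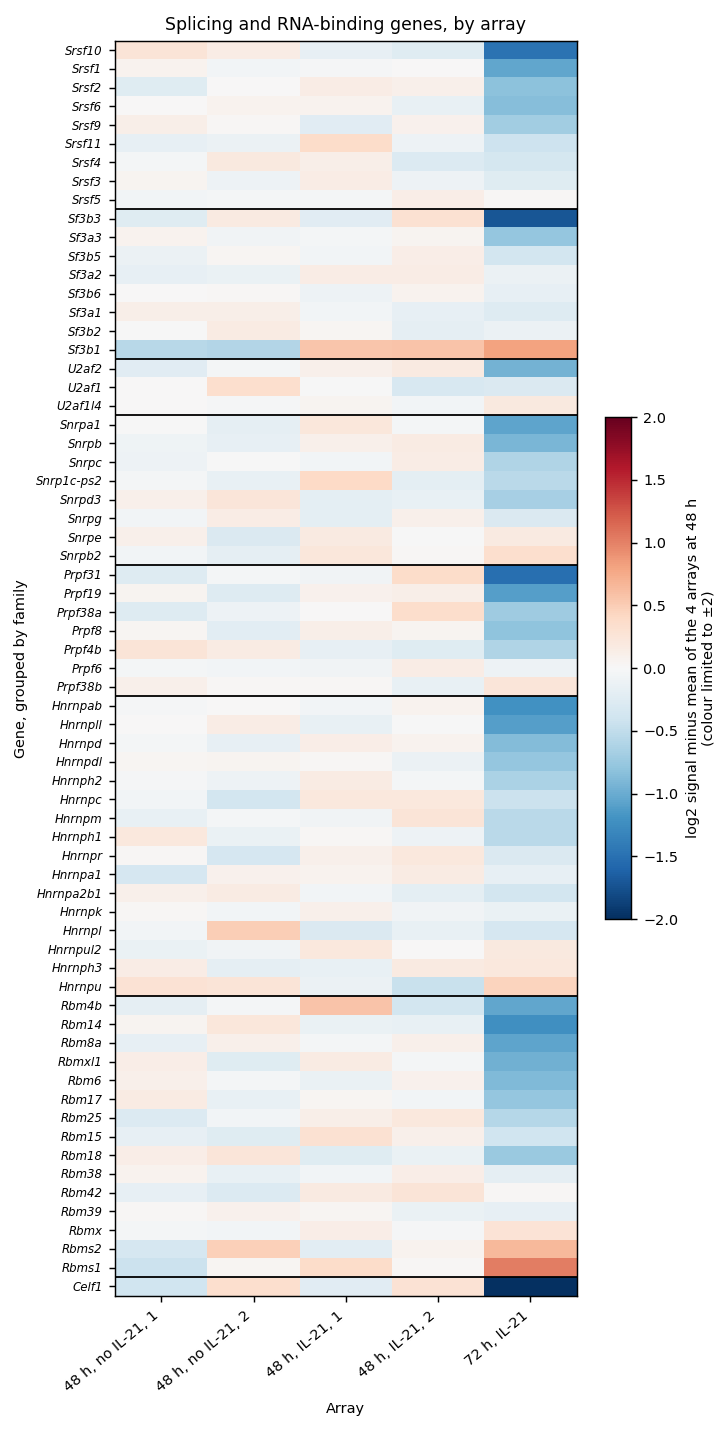
Normalised log2 signal of the 67 tested genes on each of the 5 arrays (columns), relative to the mean of the gene's 4 arrays at 48 h, grouped by family; blue is lower and red higher, and colours end at 2 log2 units. The 72 h column is blue in most rows, with 49 genes below all 4 arrays at 48 h, and Sf3b1 stands out as red in the 3 columns with IL-21.

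**Figure D2:**
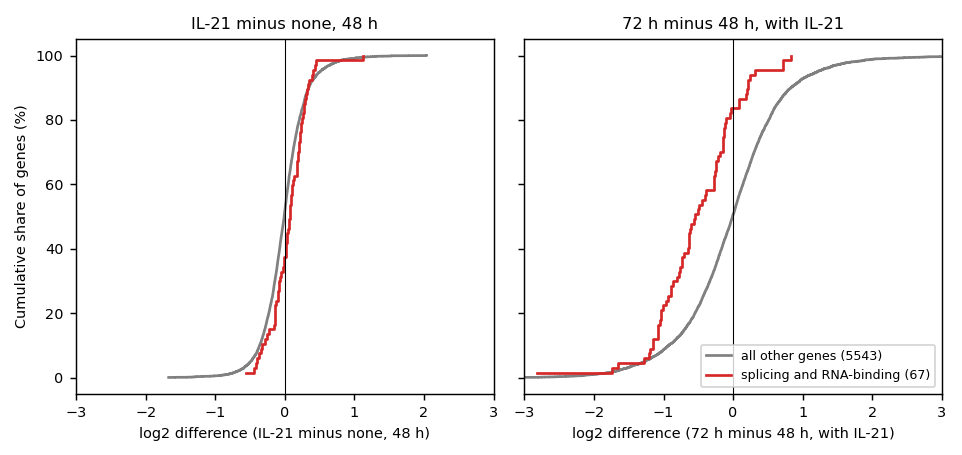
Cumulative share (in percent) of genes by log2 difference, for the 67 splicing and RNA-binding genes (red) and the 5543 other tested genes (grey), for IL-21 against none at 48 h (left) and 72 h against 48 h with IL-21 (right). At 72 h the red curve lies left of the grey one, with medians of -0.55 and -0.01, and at 48 h the medians are 0.07 and -0.01.

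The start regions of these genes were read for short motifs, because 20 members fell on the same array. Of the 69 members, 61 had a promoter sequence in RefSeq (GRCm38.p6), 60 of them tested and 16 of them among the 20 that fell. Windows of 250 bases before any listed start of a gene were searched on both strands. The ETS core CCGGAAG was present in 16 of 60 tested members (26.7%), against 17.2% of 4559 tested genes of the array and 7.83% of 27025 genes with a sequence. It was found in 4 of 16 members that fell (25.0%) and in 12 of 44 that were not called (27.3%), which are like shares. The E-box CACGTG, the sequence bound by MYC and its partners, was in 1 of 60 members (1.67%), Hnrnpd, against 10.7% of array genes and 6.86% of all genes. The CCAAT box (CCAAT) was in 32 of 60 members (53.3%), against 40.8% and 37.5%, and the TATA box (TATAAA) in 5 of 60 (8.33%), against 8.51% and 14.3%. No motif searched contains another. These matches are descriptions of letters and were not tested.

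Shown here are the windows of the 4 genes that both fell and held the ETS core, so that its place can be compared. Each runs 5′ to 3′ on the strand of its gene and ends at the base before the start, with the ETS core, or its complement CTTCCGG, and the E-box in capitals. The windows are chr5:99978939-99979188 (minus strand) for Hnrnpd, chr19:10894981-10895230 (plus strand) for Prpf19, chr4:124714611-124714860 (plus strand) for Sf3a3 and chr8:110846804-110847053 (minus strand) for Sf3b3.
Hnrnpd: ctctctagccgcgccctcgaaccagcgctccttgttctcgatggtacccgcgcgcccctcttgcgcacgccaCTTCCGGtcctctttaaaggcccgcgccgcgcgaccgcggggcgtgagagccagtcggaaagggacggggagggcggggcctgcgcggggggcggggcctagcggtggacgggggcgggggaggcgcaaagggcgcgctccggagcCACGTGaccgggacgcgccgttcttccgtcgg
Prpf19: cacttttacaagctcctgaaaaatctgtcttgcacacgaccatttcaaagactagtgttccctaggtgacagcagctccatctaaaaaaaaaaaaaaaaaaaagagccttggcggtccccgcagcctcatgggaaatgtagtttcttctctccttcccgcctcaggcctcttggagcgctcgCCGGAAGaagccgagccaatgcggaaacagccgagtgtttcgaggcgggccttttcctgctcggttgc
Sf3a3: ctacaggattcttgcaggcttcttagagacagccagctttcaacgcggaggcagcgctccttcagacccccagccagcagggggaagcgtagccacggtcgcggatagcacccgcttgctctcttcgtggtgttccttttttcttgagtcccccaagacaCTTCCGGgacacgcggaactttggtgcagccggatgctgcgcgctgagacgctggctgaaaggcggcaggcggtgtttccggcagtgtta
Sf3b3: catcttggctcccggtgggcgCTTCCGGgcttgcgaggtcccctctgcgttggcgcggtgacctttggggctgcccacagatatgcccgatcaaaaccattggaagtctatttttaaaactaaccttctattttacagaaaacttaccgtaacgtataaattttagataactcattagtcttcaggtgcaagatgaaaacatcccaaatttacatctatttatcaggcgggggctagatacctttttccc
The core began 178 bases before the start of Hnrnpd, 68 before that of Prpf19, 90 before that of Sf3a3 and 229 before that of Sf3b3. The E-box of Hnrnpd lay closer, 32 bases before its start. Prpf19 held the core itself and the other 3 genes its complement, so both position and orientation varied.

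Among the SR proteins, 4 of 9 fell at 72 h and all 9 had a negative difference, with a median of -0.62 on the log2 scale. Srsf10, a regulator that can repress splicing, had normalised signals of 182 and 168 without IL-21 and 136 and 128 with it at 48 h, and 54.4 at 72 h. The 72 h array was the lowest, and the difference from 48 h with IL-21 was -1.28 on the log2 scale (SE 0.21, adjusted p = 0.02). Srsf1, the founding SR protein, stood at 163 and 151 without IL-21 and 154 and 158 with it at 48 h, and 76.0 at 72 h. Its arrays at 48 h lay close together in both groups, and it fell 2.05-fold by 72 h, a difference of -1.04 (SE 0.20, adjusted p = 0.0295). The mean over its probe sets gave -0.91 and was not called. Srsf2, which acts in exon definition and was the brightest of the family, gave 2009 and 2381 without IL-21 and 2624 and 2557 with it at 48 h, and 1348 at 72 h. The fall of Srsf2 was 0.94 (SE 0.14, adjusted p = 0.0159) on the log2 scale. For Srsf6, another SR protein that binds exonic enhancers, the signals were 547 and 570 without IL-21 and 566 and 487 with it at 48 h, and 299 at 72 h. The 72 h signal of Srsf6 lay well under the 48 h range, and the gene fell by 0.81 (SE 0.17, adjusted p = 0.0347). The remaining 5 did not pass. Srsf9, a short SR protein, differed by -0.62 (SE 0.18, adjusted p = 0.0827) and Srsf11 by -0.55 (SE 0.23, adjusted p = 0.197), and Srsf3, Srsf4 and Srsf5 by -0.27, -0.27 and -0.03. Srsf5 at 388 lay inside its 48 h range of 369 to 421.

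Of the SF3a and SF3b subunits of the U2 snRNP, 2 of 8 fell, and the median difference was -0.21. Sf3b3, a large scaffold subunit of SF3b, had signals of 278 and 372 without IL-21 and 281 and 406 with it at 48 h, and 101 at 72 h. The replicates at 48 h spread widely, yet the lowest of them was far above the 72 h array. The gene fell 3.35-fold, by 1.75 (SE 0.29, adjusted p = 0.0217) on the log2 scale, the largest fall of a member other than Celf1. Sf3a3, a subunit of SF3a, gave 424 and 386 without IL-21 and 394 and 421 with it at 48 h, and 238 at 72 h. The values at 48 h overlapped between the groups, and the 72 h value was lower by 0.77 (SE 0.17, adjusted p = 0.0392). Sf3b5 differed by -0.40 (SE 0.17, adjusted p = 0.192) without passing. Sf3a1, Sf3a2, Sf3b2 and Sf3b6 lay between -0.27 and -0.04. Sf3b1, the subunit that holds the branch point, was the only one above 0 (none was with arrays centred on their medians or unscaled), with 407 at 72 h against 341 and 347 at 48 h with IL-21, a difference of 0.24 (SE 0.17, adjusted p = 0.421). Subunits of the same particle therefore had differences of either sign on the single 72 h array, and whether they differed from each other was not tested.

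U2AF, the factor that recognises the 3′ splice site, has a large and a small subunit. U2af2, the large subunit, which binds the polypyrimidine tract, had signals of 1428 and 1618 without IL-21 and 1783 and 1883 with it at 48 h, and 865 at 72 h. It fell 2.12-fold, by 1.08 (SE 0.13, adjusted p = 0.0121) on the log2 scale. U2af1, the small subunit, which reads the terminal AG, gave 766 and 960 without IL-21 and 760 and 609 with it at 48 h, and 624 at 72 h. The 72 h array lay within the 48 h range, and U2af1 did not pass (log2 difference -0.13, SE 0.21, adjusted p = 0.756). Its relative U2af1l4 stood at 130 at 72 h against 110 to 119 at 48 h and differed by 0.18 (SE 0.21, adjusted p = 0.629).

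Of the snRNP proteins, 2 of 8 fell and 6 of 8 had a negative difference, with a median of -0.56. Snrpb, the core SmB protein shared by several snRNPs, was among the brightest members and had signals of 2515 and 2372 without IL-21 and 2863 and 2977 with it at 48 h, and 1414 at 72 h. Its replicates lay close together and its fall of 1.05 (SE 0.11, adjusted p = 0.00928) had the smallest adjusted p of any member. Snrpa1, the U2-specific A′ protein, gave 193 and 172 without IL-21 and 226 and 189 with it at 48 h, and 93.4 at 72 h. It fell 2.21-fold, by 1.15 (SE 0.22, adjusted p = 0.0284) on the log2 scale. Snrpc, a U1-specific protein, stood at 281 at 72 h, under its 48 h range of 398 to 469, and did not pass (log2 difference -0.65, SE 0.17, adjusted p = 0.0669). Snrpd3, another Sm protein, was also below its 48 h range, at 149 against 206 to 280, with a difference of -0.49 (SE 0.18, adjusted p = 0.152). The core proteins Snrpg and Snrpe differed by -0.25 and 0.09, and Snrpb2, the U2-specific partner of Snrpa1, by 0.22, of which none passed. Snrp1c-ps2, a pseudogene entry whose probe set may read the parent gene, differed by -0.63.

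The Prpf proteins had the most negative family median, -0.89, and 3 of 7 fell. Prpf31, which bridges U4/U6 to U5, had signals of 262 and 303 without IL-21 and 297 and 403 with it at 48 h, and 110 at 72 h. All 4 arrays at 48 h lay far above the 72 h signal, and the fall was 3.14-fold (log2 difference -1.65, SE 0.24, adjusted p = 0.0164). Prpf19, the ubiquitin ligase that names the Prp19 complex, gave 434 and 348 without IL-21 and 441 and 451 with it at 48 h, and 194 at 72 h. It fell by 1.20 (SE 0.19, adjusted p = 0.0201), but the mean with its other, dim probe set was -0.38 and was not called. For Prpf8, the central U5 protein at the catalytic core, the signals were 500 and 421 without IL-21 and 526 and 507 with it at 48 h, and 278 at 72 h. The 72 h array of Prpf8 was again the lowest, with a difference of -0.89 (SE 0.18, adjusted p = 0.0307). Prpf38a, a protein of the precatalytic spliceosome, had a difference of the same size as Prpf8 with a larger error and did not pass (log2 difference -0.89, SE 0.24, adjusted p = 0.0667). Prpf4b, a kinase of splicing factors, differed by -0.39 (SE 0.31, adjusted p = 0.48), Prpf6 by -0.14 and Prpf38b by 0.31.

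Of 16 hnRNP genes, 4 fell and 13 had a negative difference, with a median of -0.48. Hnrnpab, which binds RNA and single-stranded DNA, had signals of 372 and 381 without IL-21 and 366 and 398 with it at 48 h, and 165 at 72 h. The 4 arrays at 48 h lay within a narrow band, and the gene fell 2.32-fold (log2 difference -1.21, SE 0.17, adjusted p = 0.0149). Hnrnpll, the regulator of CD45 exons in activated T cells, gave 257 and 284 without IL-21 and 232 and 256 with it at 48 h, and 119 at 72 h. It fell 2.05-fold, by 1.03 (SE 0.19, adjusted p = 0.0265) on the log2 scale. Hnrnpd, also known as AUF1, which binds AU-rich elements in unstable mRNAs, stood at 597 and 546 without IL-21 and 675 and 640 with it at 48 h, and 336 at 72 h. Its paralogue Hnrnpdl had 920 and 925 without IL-21 and 906 and 822 with it at 48 h, and 520 at 72 h. Both paralogues were lowest at 72 h, and they fell by 0.97 (SE 0.15, adjusted p = 0.0191) for Hnrnpd and by 0.73 (SE 0.14, adjusted p = 0.0289) for Hnrnpdl. The other 12 did not pass. Hnrnpm, a splicing repressor, differed by -0.64 (SE 0.19, adjusted p = 0.0912). Hnrnpu, a chromatin-associated member of the family, was the highest above 0, with 58.3 at 72 h against 31.7 to 52.7 at 48 h and a difference of 0.72 (SE 0.28, adjusted p = 0.169). The rest ran from -0.70 for Hnrnph2 to 0.19 for Hnrnph3, with -0.28 for Hnrnpa1, -0.24 for Hnrnpa2b1 and -0.15 for Hnrnpk.

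Of 15 tested Rbm genes, a group that shares an RNA recognition motif but not a single function, 3 fell, with a median of -0.60. Rbm8a, also known as Y14, a core protein of the exon junction complex left on spliced mRNA, had signals of 488 and 592 without IL-21 and 534 and 590 with it at 48 h, and 265 at 72 h. It fell 2.12-fold (log2 difference -1.08, SE 0.18, adjusted p = 0.0226). Rbm14, a paraspeckle protein and transcriptional coactivator, gave 168 and 189 without IL-21 and 147 and 146 with it at 48 h, and 68.9 at 72 h. The fall of Rbm14 was 1.09 (SE 0.20, adjusted p = 0.0279) on the log2 scale. Rbmxl1, an intronless relative of Rbmx, stood at 461 and 354 without IL-21 and 471 and 407 with it at 48 h, and 217 at 72 h. It fell by 1.01 (SE 0.22, adjusted p = 0.0391), while the probe set of Rbmx differed by 0.22 without passing, and array probes for such related sequences may bind both transcripts. Rbm17, which acts at 3′ splice sites, lay just outside the threshold (log2 difference -0.76, SE 0.18, adjusted p = 0.0502). Rbm4b had a larger difference with wide replicates at 48 h (43.9 to 84.1) and did not pass (log2 difference -1.15, SE 0.42, adjusted p = 0.143). Rbms1 and Rbms2, single-stranded nucleic acid binding proteins, were the highest above 0, at 0.83 (SE 0.30, adjusted p = 0.141) and 0.72 (SE 0.39, adjusted p = 0.308). Rbm15 differed by -0.60, Rbm18 by -0.56 and Rbm42 by -0.19.

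Celf1, which binds GU-rich elements and acts in splicing and mRNA decay, had signals of 35.6 and 58.7 without IL-21 and 40.1 and 56.9 with it at 48 h, and 6.76 at 72 h. It was called lower (log2 difference -2.82, SE 0.43, adjusted p = 0.018), but its 72 h signal lay at the level of the members too dim to test. The gene passed the filter through its 48 h arrays, so the size of this difference is uncertain. A second probe set of the gene read 14.1 and 16.3 without IL-21 and 13.8 and 11.1 with it at 48 h, and 12.9 at 72 h, and its difference was 0.06 (SE 0.49, adjusted p = 0.956). The mean of both was -1.38 and was not called. The 2 probe sets of Celf1 thus did not give the same account, and both were dim at 72 h, where detection was not tested.

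**Figure D3:**
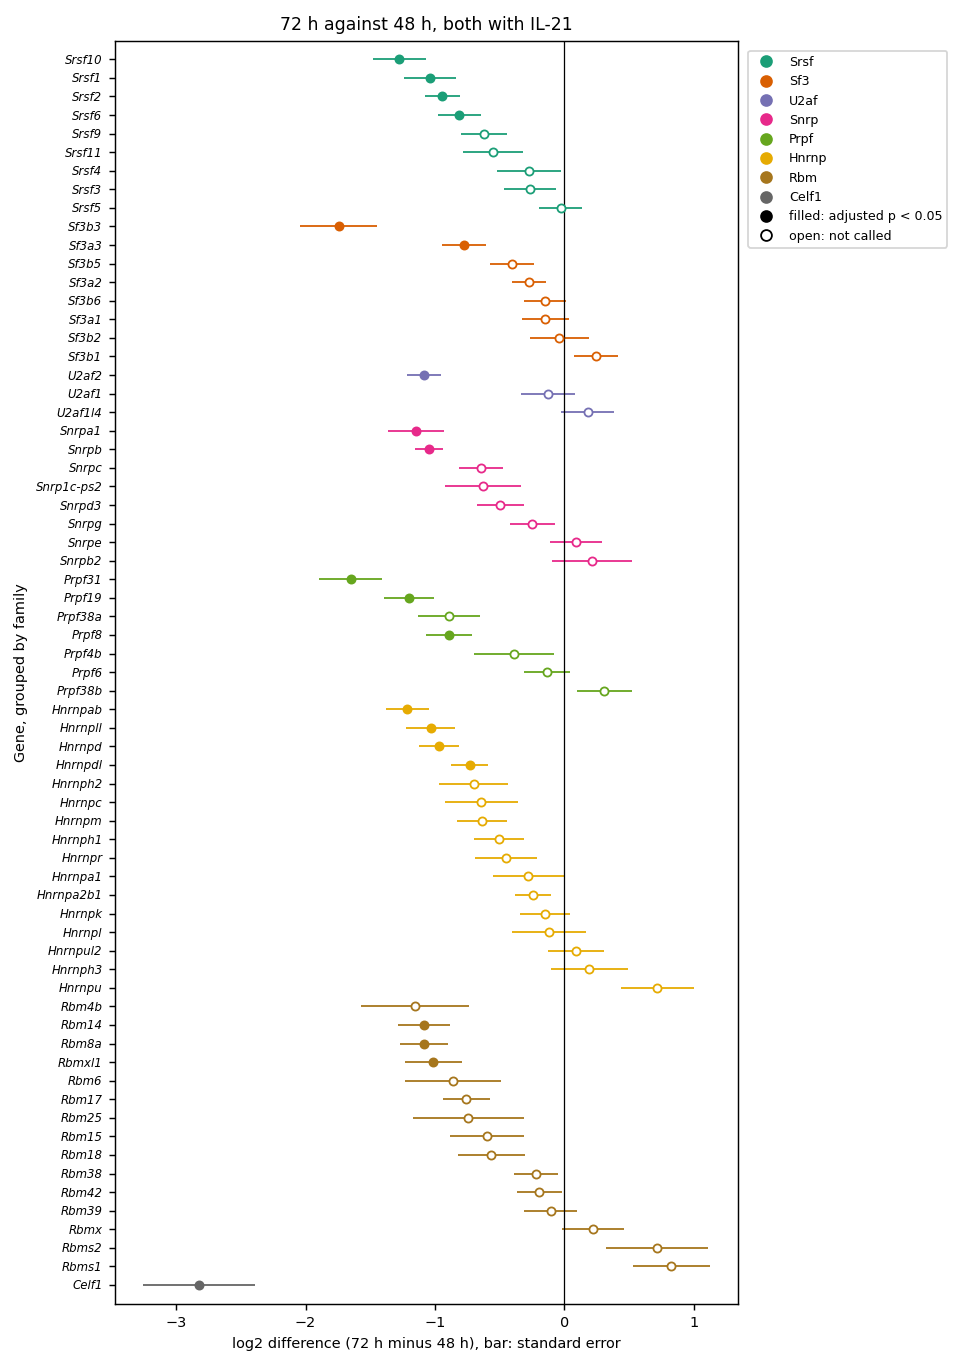
Log2 difference between 72 h and 48 h, both with IL-21, for each of the 67 tested genes, coloured by family; bars are standard errors from limma and filled points passed at an adjusted p under 0.05. The 20 filled points all lie left of 0, and 11 open points lie right of it.

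Other probe sets gave a partial check within genes. Of the members, 15 had further probe sets that passed the filter, 16 in all. At 72 h, 13 of 16 had the sign of the brightest probe set and 3 the opposite sign, against 6 and 10 at 48 h. For Hnrnpab the second probe set read 26.8 to 31.0 at 48 h and 3.46 at 72 h. It was called lower, but it passed the filter through the 48 h arrays and ended near the floor, so its size is uncertain. A second probe set of Srsf1 fell by 1.16 (SE 0.21, adjusted p = 0.0263). For Srsf10 the second probe set differed by -1.02 (SE 0.33, adjusted p = 0.111), for Hnrnpdl by -0.96 (SE 0.23, adjusted p = 0.0507) and for Srsf2 by -0.64 (SE 0.21, adjusted p = 0.113). Besides Celf1, the opposite signs were those of Prpf19, whose other, dim probe set differed by 0.45 (SE 0.63, adjusted p = 0.709), and of Hnrnpul2, at -0.38 against 0.09. Of the 20 genes that fell, 4 were read by probe sets whose names end in f_at, s_at or r_at, which may match related sequences.

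**Figure D4:**
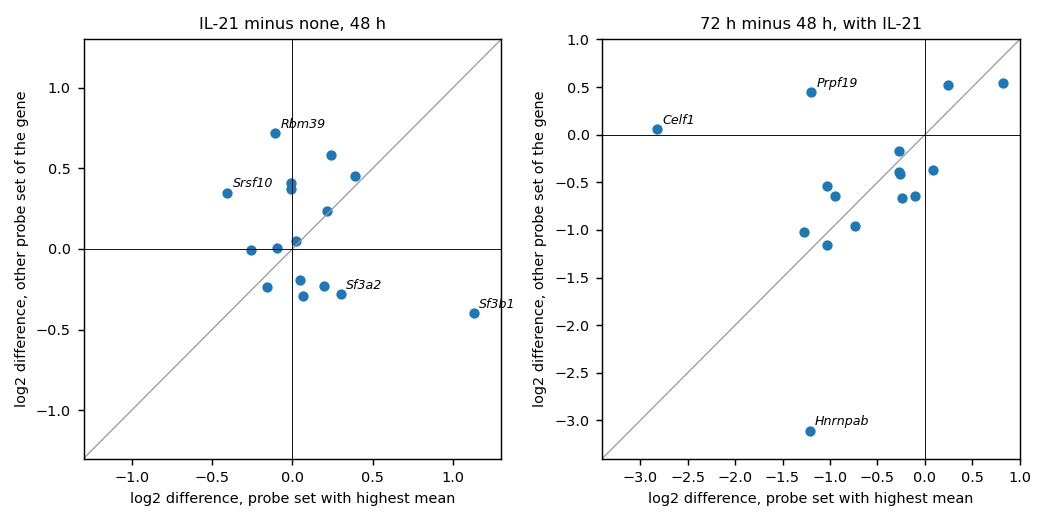
Log2 difference of each further probe set (vertical) against that of the brightest probe set of the same gene (horizontal), for 16 further probe sets of 15 genes, at 48 h (left) and 72 h (right); the diagonal marks equal values. At 72 h 13 of 16 share a sign, with Celf1 and Prpf19 in the upper left, and at 48 h 6 of 16 do, with Sf3b1 in the lower right.

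Splicing genes outside the naming rule were followed in 6 lists, of which 102 genes were tested. Of these 17 fell (16.7%), 1 rose and 84 were not called, and their median was -0.33. Of all 5610 genes tested, 7.59% were called lower and 4.28% higher, and the median was -0.01. With the control scaling 5 fell and 2 rose, against 238 lower and 667 higher of all 7453 probe sets. Unscaled, 64 fell and 0 rose, against 2027 lower and 101 higher. Of 12 LSm proteins and factors that load Sm rings onto snRNAs, 5 fell, with a median of -0.83. Smn1, the survival motor neuron protein that loads Sm rings, went from a mean of 444 to 151 (log2 difference -1.56, SE 0.18, adjusted p = 0.0105). Wdr77, a partner of the methyltransferase that modifies Sm proteins, went from 292 to 51.9 (log2 difference -2.49, SE 0.41, adjusted p = 0.0208), and Clns1a, of the same complex, fell 2.02-fold. Of 9 exon junction and mRNA export genes 3 fell, among them Rnps1 (731 to 343) and the export receptor Nxf1 (124 to 58.8), with Ddx39b as the other. Of 30 further U1, U2, U5 and Prp19 proteins 4 fell, among them the U5 GTPase Eftud2 (392 to 180) and the SF3b subunit Phf5a (220 to 89.1), with a median of -0.21, or 0.01 with the control scaling. Of 29 other splicing regulators 4 fell, including Fubp1 (315 to 108), Elavl1 (521 to 268) and Tardbp (222 to 110), with a median of -0.35. The list of 3′ end processing, which also holds poly(A)-binding proteins, had 15 tested genes. Of these only Pabpc4, a poly(A)-binding protein, fell, from 637 to 167 (log2 difference -1.93, SE 0.18, adjusted p = 0.00928). Fip1l1 rose from 47.7 to 108 (log2 difference 1.18, SE 0.24, adjusted p = 0.0323), a call lost with arrays centred on their medians and unscaled. Of the SR protein kinases and phosphatases list 7 genes were tested, all kinases, with 6 of 7 above 0, a median of 0.24 (-0.08 centred, -0.49 unscaled and 0.42 with the control scaling) and 0 called, and Clk1, the kinase that phosphorylates SR proteins in the nucleus, differed by 0.69 (SE 0.17, adjusted p = 0.0546).

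The second question was what IL-21 added at 48 h. No splicing gene passed in the main fit of the normalised signals. With the replicate number as a block Sf3b1 passed, 1 of 11 probe sets called in all. In the unscaled signals 15 members passed, all higher. Unscaled, 696 of all 7453 probe sets passed, and these too were all higher. Of the 67 tested, 42 were higher and 25 lower with IL-21, against 66 and 1 unscaled and 3 and 64 with the control scaling, and the median log2 difference was 0.07, against -0.01 for all genes. The sign of these medians, and of those of the families given for 48 h, followed the scaling. Unscaled, members had 0.66 against 0.57 for all 7453 probe sets, and with the control scaling -0.34 against -0.43. In limma, 0 of 5610 genes (0%) passed at an adjusted p under 0.05, and the smallest adjusted p of a member was 0.585. Before adjustment 5 members (7.46%) had a p under 0.05, namely Sf3b1, Rbm42, Snrpb, Sf3a2 and U2af2, against 4.15% of all genes. The 2 groups did not overlap for 31 members (46.3%), 18 higher and 13 lower, against 33.6% of all genes, and 2 arrays against 2 cannot go below an exact permutation p of 0.333. In size, 66 of 67 members differed by less than 1.5-fold, and Sf3b1 by more. Of all genes, 1.16% differed at least 2-fold without overlap, and 1 member did.

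Sf3b1 was that member, with 159 and 155 without IL-21 and 341 and 347 with IL-21, so the groups were well apart and each pair of replicates lay close together. The difference was 1.13 (SE 0.14, unadjusted p = 0.000184) on the log2 scale, with an adjusted p of 0.585 in limma. In the unscaled signals it was 1.71 and passed. Fits that lacked any 1 of the 4 arrays gave 1.11 to 1.15. A second probe set of Sf3b1 read 154 and 162 without IL-21 and 132 and 108 with IL-21, a difference of -0.40 (SE 0.18) in the opposite direction. The mean of both probe sets gave 0.37. The 2 probe sets therefore disagreed on the sign, and which of them reads the gene's main transcript was not tested.

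The other members with the smallest p at 48 h had modest differences. Rbm42 read 253 and 235 without IL-21 and 323 and 341 with IL-21 (log2 difference 0.44, SE 0.14, unadjusted p = 0.0201), and its groups did not overlap. Snrpb had 2515 and 2372 without IL-21 and 2863 and 2977 with it (log2 difference 0.26, SE 0.09, unadjusted p = 0.026). U2af2 had 1428 and 1618 without IL-21 and 1783 and 1883 with it (log2 difference 0.27, SE 0.11, unadjusted p = 0.048). These 3 genes were higher on both arrays with IL-21 than on either without it, by less than 1.5-fold each. Sf3a2 had 722 and 733 without IL-21 and 894 and 898 with IL-21 (log2 difference 0.30, SE 0.11, unadjusted p = 0.0312), though its second probe set was lower, at -0.28 (SE 0.15). Sf3a1 was lower on both arrays with IL-21, at 210 and 194 against 236 and 238 without IL-21, with a difference of -0.23. U2af1 differed by -0.33 (SE 0.17, unadjusted p = 0.0984) and U2af1l4 by 0.01.

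Among the SR proteins at 48 h, 4 were higher and 5 lower with IL-21, with a median of -0.01. Srsf10 had 182 and 168 without IL-21 and 136 and 128 with IL-21 (log2 difference -0.41, SE 0.17, unadjusted p = 0.0522), and its second probe set had the opposite sign, 0.35 (SE 0.27). Srsf2 differed by 0.24 (SE 0.11, unadjusted p = 0.0698), and its second probe set by 0.58 (SE 0.17, unadjusted p = 0.0145) in the same direction. Srsf11 differed by 0.28. Srsf1 stood at -0.01, while 2 further probe sets of it gave 0.41 and 0.37. Srsf3 had 0.05 and -0.19 by its 2 probe sets. None of these differences passed the adjusted threshold.

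Among the snRNP and Prpf proteins 6 of 8 and 5 of 7 were higher with IL-21, with medians of 0.18 and 0.17. Snrpd3 was lower (log2 difference -0.35, SE 0.15, unadjusted p = 0.0585), and Snrpe, an Sm protein, differed by 0.18. Prpf38a differed by 0.35 (SE 0.19, unadjusted p = 0.119), Prpf31 by 0.30, Prpf8 by 0.17 and Prpf4b by -0.41. Prpf19 differed by 0.20, and its dim second probe set by -0.23. Prpf31 and Prpf19, which both fell by 72 h, were not called at 48 h in the normalised signals and were called higher with IL-21 in the unscaled ones. Unscaled, the median hybridisation control read 352 and 300 on the 48 h arrays with IL-21. It read 160 and 163 without IL-21 and 173 at 72 h. Both comparisons use the 48 h arrays with IL-21, so their results are not separate observations.

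With IL-21, 10 hnRNP genes lay above 0 and 6 below it, and their median was 0.03. Hnrnpu had 52.7 and 51.5 without IL-21 and 39.5 and 31.7 with IL-21, without overlap (log2 difference -0.56, SE 0.23, unadjusted p = 0.0512). Hnrnpa2b1, which sorts RNAs and microRNAs, had 1153 and 1210 without IL-21 and 1041 and 939 with it (log2 difference -0.26, SE 0.11, unadjusted p = 0.0606). Hnrnpl, a splicing repressor that also acts on CD45 exons, differed by -0.44 (SE 0.23, unadjusted p = 0.109), and its relative Hnrnpll by -0.15. Hnrnpab differed by 0.02, Hnrnpd by 0.20 and Hnrnpdl by -0.10, with 0.00 by its second probe set. For the Rbm genes these counts were 9 and 6, and the median was 0.08. Besides Rbm42, Rbm18 differed by -0.37 (SE 0.21, unadjusted p = 0.127) and Rbm15 by 0.41 (SE 0.23, unadjusted p = 0.13). The brightest probe set of Rbm39, a U2AF-related splicing factor, gave -0.11 and another 0.72 (SE 0.26, unadjusted p = 0.0339). Celf1 differed by 0.06 and by -0.29 on its second probe set. None of the 102 genes of the other splicing lists passed at 48 h.

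**Figure D5:**
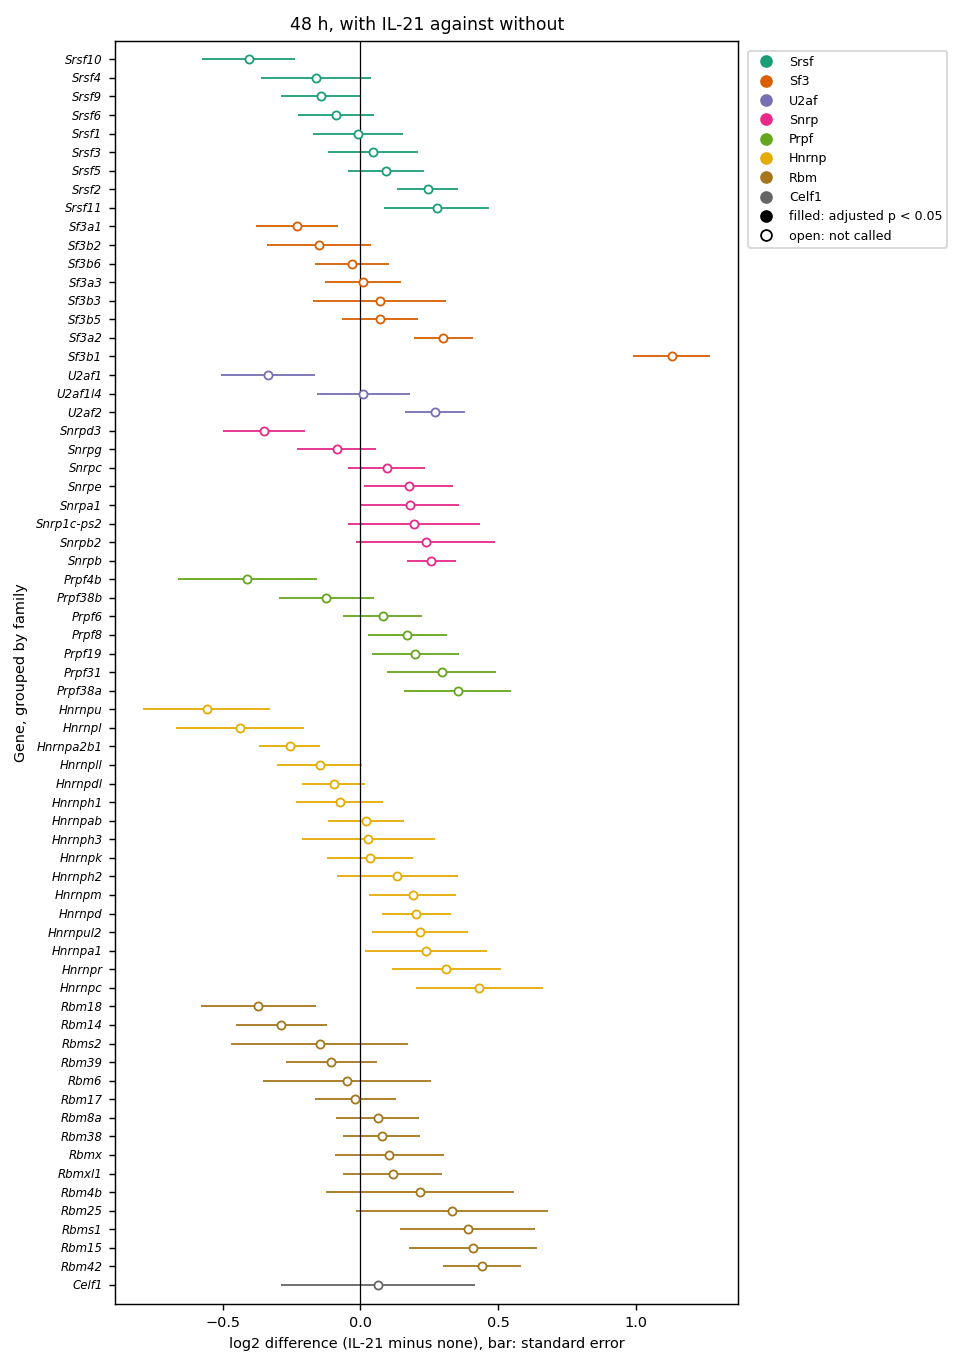
Log2 difference between cultures with and without IL-21 at 48 h for each of the 67 tested genes, coloured by family; bars are standard errors from limma, and all points are open because none passed. Sf3b1 at 1.13 lies apart from the others, which run from -0.56 to 0.44.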

How the data were processed

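The authors deposited 1 table of linear probe set intensity values for 5 MG-U74Av2 arrays, with MAS5 as the summary method, per the submitters' processing notes. A scaling target is not given in the sources used here, nor are detection calls, and the deposited intensity columns were not on a common scale. Biotin-labelled cRNA came from 10 µg of RNA per sample, per the labels' protocols. Of 12488 probe sets 66 were controls, and 10833 of the other 12422 had 1 gene name, of which 10817 were matched by Entrez identifier to GRCm38.p6 symbols, 396 had several and 1193 none. The design assumed comparable columns, so quantile normalisation replaced the deposited scaling, which became an alternative. Before log2, each value was raised by 1.53, the 10th percentile over the table, so changes of dim probe sets are understated, and normalised signals include it. Probe sets with a mean log2 above the 40th percentile were kept (7453). limma 3.58.1 in R 4.3.3 fitted 3 group means to 5 arrays (2 residual degrees of freedom) with a variance trend, two-sided, with Benjamini-Hochberg adjustment over 7453 probe sets at 0.05, and this adjusted p is meant throughout. The procedure, from the limma fit on, was tested on simulated data. In them all arrays were independent and the 72 h array varied like those at 48 h, so these assumptions were not tested.

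Members, lists and tests were chosen with earlier results of these data known. Named genes were every member called at 72 h, the 3 per family with the smallest p in each comparison, members at least 2-fold apart without overlap at 48 h, members whose probe sets disagreed in sign, up to 3 called genes per other list, and Celf1, Hnrnpab and Sf3b1. Other names were chosen after their values were seen. Alternatives covered scaling, offset, filter, variance trend, gene means, the replicate number as a block and leaving out each array at 48 h in turn. The single 72 h array was in every fit. Protein sequences were not analysed here.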

Additional observations from a re-analysis of the deposited data

How the results depend on the processing

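In the quantile-normalised analysis 0 probe sets were called at 48 h and 832 at 72 h, and members had medians of 0.07 and -0.55. The deposited scaling gave 696 and 2128 probe sets, 15 members called at 48 h and 47 at 72 h and medians of 0.66 and -1.12. Scaling on hybridisation controls gave 44 and 905 probe sets, 5 members and medians of -0.34 and -0.21. Centring arrays on their medians moved the 72 h median to -0.71, and an offset of 16 to -0.43. The mean over probe sets called 18 members at 72 h and not Celf1, Prpf19 or Srsf1. Without the variance trend 0 probe sets and 0 members were called at 72 h. Fits that left out 1 array at a time gave 0 to 465 probe sets and 0 to 11 members at 72 h, with medians of -0.56 to -0.47, and at 48 h 0 probe sets and medians of 0.02 to 0.08. With the replicate number as a block (replicate block), 11 probe sets were called at 48 h, Sf3b1 among them (adjusted p = 0.0391 in limma, range over its alternatives 0.0194 to 0.999), and 1860 at 72 h. That block called 29 members lower and 1 higher. The numbers are not tied to a mouse or day by any label, and same-numbered arrays at 48 h deviated together with r = 0.36 over 7453 probe sets, across probe sets that are not independent. Over 38 named members and 12 alternatives, 0 called values changed sign, but every fit shared the same 72 h array. Of 912 values 713 kept their side of the threshold, 100 were no longer called, 28 became called, and 57 at 48 h and 14 at 72 h changed sign without a call. Leaving out a 48 h array leaves 1 array in its group, with or without IL-21. The cause of the differences between settings was not tested. Signal over background limits dim values such as that of Celf1 at 72 h.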
